A study of Homo sapiens with 2 samples.

Results

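The genes described here encode the proteins that coat lipid droplets, control the breakdown and synthesis of their triglyceride, and bring fatty acids into the cell. They were chosen by name, with their values in these data already known: PLIN2, HILPDA and CD36, together with PLIN3, PNPLA2, ABHD5, DGAT1 and DGAT2 where a file lists them. Of these 8 genes, 4 (PLIN2, PLIN3, HILPDA and CD36) were listed in both libraries, out of 10548 genes listed in both. All 4 averaged at least 1 FPKM over the libraries, the filter for expressed genes, which 5528 genes passed. PNPLA2, ABHD5, DGAT1 and DGAT2 were not analysed here.

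The study compared cells labelled HAL-01, which the labels describe as a human pre-B leukaemia line, with and without addition of 1,5-AG (1,5-anhydroglucitol, a polyol related to glucose). In the AG culture 0.8 mM 1,5-AG was present for 24 h, while the sources used here do not say how the Control culture was handled. There was 1 mRNA sequencing library of each culture (n = 1 each), so differences have no check against replicates and no p-values are given. Levels are in FPKM, a count of sequenced fragments divided by the length of the gene and by the library total. The totals implied by the steps between low values were 14857372 fragments for AG and 16240451 for Control. Intervals in the text are exact 95% intervals of the recovered fragment numbers and leave out any spread between cultures.

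A lipid droplet is a store of triglyceride and sterol ester enclosed in a single layer of phospholipid and coated with proteins, among them the perilipins. Fatty acids that enter the cell through CD36 or the SLC27A transporters are activated to acyl-CoA and esterified through the GPAT, AGPAT, lipin and DGAT enzymes. PNPLA2, with its co-activator ABHD5, starts the release of fatty acids again, and HILPDA inhibits PNPLA2. PLIN2 and CD36 are known target genes of the fatty acid-sensing PPAR nuclear receptors, and macrophages that take up lipid carry both proteins.

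The label of the cells was not borne out by the marker genes. Among the pre-B genes, CD79A, a signalling chain of B cell receptors, had 0.351 FPKM in AG and 0.275 in Control, from 7 and 6 fragments. EBF1, a transcription factor of early B cells, had 0.0531 FPKM in AG and 0.194 in Control, from 5 and 20 fragments. Not all genes of this list are reported, and a gene without a value is not read as unexpressed. Listed values near 0, such as these, can also reflect reads that were not counted. Of 11 monocyte and granulocyte genes, 7 were listed in both libraries, with a summed 497 FPKM in AG and 952 in Control. The direction of this sum came from CTSG, and the other 6 summed to 303 FPKM in AG and 209 in Control. MPO and ELANE were also lower in AG. The other 4 of the 7 had a log2 ratio above 0, and the median of the 7 was 0.28. In adipocytes, where lipid droplets are largest, the defining genes include ADIPOQ, LEP, PLIN1, FABP4 and LIPE, and none of these 5 was listed in both libraries. In such bulk libraries, fewer cells of a type and less RNA per cell cannot be told apart.

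PLIN2, PLIN3 and CD36 have promoter windows in RefSeq (GRCh38.p14), each from 250 bases before to 50 after an annotated start, and they are shown because PLIN2 and its relative PLIN3 differed in opposite directions between the libraries. PLIN2 and PLIN3 have 1 window each. CD36 has 6, of which the 1 that held a searched motif is printed. The windows lie at chr9:19127443-19127742 on the minus strand for PLIN2, chr19:4867618-4867917 on the minus strand for PLIN3 and chr7:80638392-80638691 on the plus strand for CD36. Each reads 5′ to 3′ along its gene, and capitals mark ACGTG or GCGTG, the cores of the hypoxia response element, on either strand, and CACGTG, the E-box, which contains ACGTG on both strands.
PLIN2: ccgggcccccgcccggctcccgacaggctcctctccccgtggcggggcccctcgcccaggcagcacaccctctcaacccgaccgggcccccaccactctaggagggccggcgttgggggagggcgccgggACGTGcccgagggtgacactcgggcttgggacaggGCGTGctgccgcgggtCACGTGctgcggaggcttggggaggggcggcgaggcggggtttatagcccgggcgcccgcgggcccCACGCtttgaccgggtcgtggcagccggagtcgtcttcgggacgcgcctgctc
PLIN3: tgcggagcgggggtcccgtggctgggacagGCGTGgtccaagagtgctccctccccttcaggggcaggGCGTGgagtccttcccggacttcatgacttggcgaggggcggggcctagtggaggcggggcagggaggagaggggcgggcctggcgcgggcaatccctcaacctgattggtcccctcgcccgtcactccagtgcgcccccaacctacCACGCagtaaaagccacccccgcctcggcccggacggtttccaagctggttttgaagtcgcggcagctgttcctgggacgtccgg
CD36: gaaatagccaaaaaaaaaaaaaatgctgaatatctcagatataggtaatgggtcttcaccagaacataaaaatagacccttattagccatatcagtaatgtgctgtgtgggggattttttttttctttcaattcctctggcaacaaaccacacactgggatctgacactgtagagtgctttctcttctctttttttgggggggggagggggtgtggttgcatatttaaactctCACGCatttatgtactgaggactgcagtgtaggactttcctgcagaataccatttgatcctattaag

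The PLIN2 window held 3 matches of ACGTG, of which a pair formed the single CACGTG, and 2 of GCGTG. The PLIN3 window held no ACGTG and 3 of GCGTG, and the printed CD36 window held 1 GCGTG. Of all 35116 windows, 21.4% held ACGTG, 36.5% held GCGTG and 7.26% held CACGTG. The PPAR direct repeat (AGGTCA, any base, AGGTCA) and its half-site AGGTCA were in none of the 8 windows of these 3 genes, and in 0.0228% and 13.8% of all windows. A match is a run of letters and not a bound site. The base composition also differed among these 3 genes. GC content was 76.7% with 36 CpG in the PLIN2 window and 69% with 24 CpG in that of PLIN3. It was 39.7% with 1 CpG in the printed CD36 window, and 35% to 43.7% with 1 to 3 CpG over the 6 CD36 windows. The median over all windows was 58.7% and 14 CpG.

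PLIN2, the main perilipin of cells other than adipocytes and a protein that is degraded when it is not bound to a droplet, differed most. It had 31.2 FPKM in AG (29.9 to 32.5, from 2321 fragments) and 7.41 FPKM in Control (6.83 to 8.03, from 603 fragments). AG is thus the high library and the intervals are far apart. The FPKM ratio, AG over Control, was 4.21 (3.85 to 4.61), or 1.94 on the scale of log2((AG FPKM + 1)/(Control FPKM + 1)) used for all log2 ratios here. By that log2 ratio PLIN2 was the 7th highest of 5528 expressed genes. By its level it ranked 606th in AG and 2491st in Control, so that 89.0% of expressed genes lay below it in AG and 54.9% in Control.

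PLIN3, a perilipin that is cytosolic until droplets form and that also serves in endosomal trafficking, had the opposite sign and a much smaller difference. It had 40.5 FPKM in AG (38.6 to 42.5, from 1649 fragments) and 46.3 FPKM in Control (44.4 to 48.4, from 2061 fragments). Control is the higher library here. The ratio was 0.875 (0.819 to 0.934), a log2 ratio of -0.19. Exons of PLIN3 share 502 bases with the antisense gene AC027319.1, so that part of its fragments cannot be assigned without knowing whether the counting used strand. GENCODE 29 gives PLIN3 2813 exonic bases in all.

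The balance of these 2 perilipins differed between the libraries, although PLIN3 had the higher FPKM in both. That order and the shares below depend on the lengths used, 5011 bases for PLIN2 and 2739 for PLIN3. By fragments, PLIN2 led in AG (2321 against 1649) and PLIN3 in Control (2061 against 603). The ratio of PLIN2 to PLIN3 FPKM was 0.769 in AG and 0.160 in Control, a 4.81-fold difference (4.30 to 5.38). Scaling of the libraries cancels in this ratio, and the gene lengths cancel in the 4.81-fold difference. PLIN4, which coats small droplets in fat and muscle, was near 0, with 0.300 FPKM in AG and 0.199 in Control. Of the summed FPKM of PLIN2, PLIN3 and PLIN4, PLIN2 held 43.3% in AG and 13.7% in Control. PLIN3 held 56.3% in AG and 85.9% in Control. PLIN1 and PLIN5 were not analysed here.

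**Figure D1:**
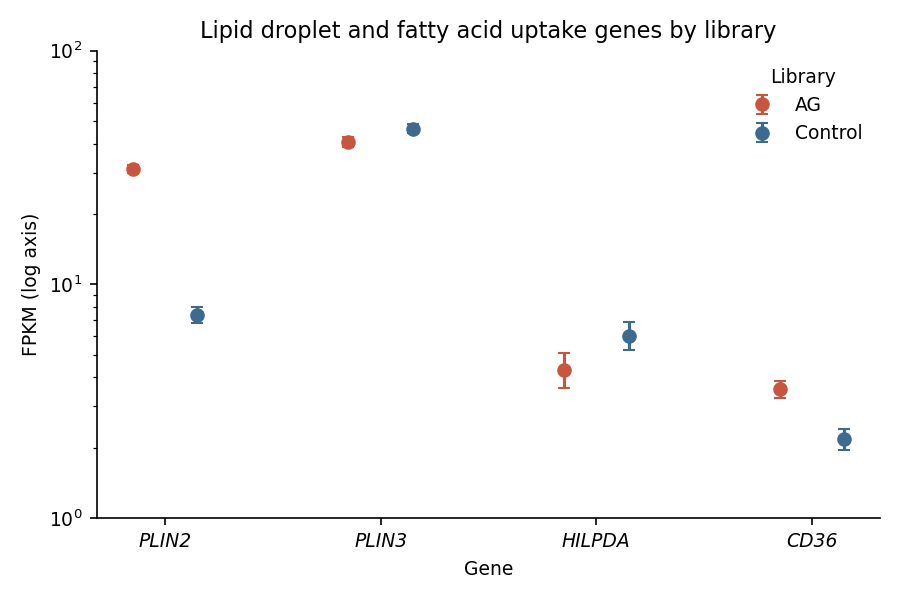
FPKM (log axis) of PLIN2, PLIN3, HILPDA and CD36 in the AG and Control libraries, 1 point per library, with bars for exact 95% Poisson intervals of the fragments. PLIN2 lies at 31.2 in AG and 7.41 in Control and CD36 is also higher in AG, while PLIN3 and HILPDA are lower in AG.

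HILPDA, a small protein named for its induction by hypoxia, was lower in AG. It had 4.29 FPKM in AG (3.59 to 5.09, from 132 fragments) and 6.01 FPKM in Control (5.21 to 6.90, from 202 fragments). The intervals do not overlap, but HILPDA rested on the fewest fragments of the 4 genes. The ratio was 0.714 (0.569 to 0.894) and the log2 ratio -0.41, within 1.5-fold. Exons of HILPDA share 175 and 186 bases on the same strand with the non-coding genes AC010655.4 and AC010655.2, so fragments there are uncertain. The ratio of PLIN2 to HILPDA FPKM was 7.26 in AG and 1.23 in Control, a 5.89-fold difference (4.62 to 7.52).

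CD36, a surface receptor for long-chain fatty acids and oxidised lipoproteins on monocytes, macrophages, platelets and adipocytes, was higher in AG. It had 3.56 FPKM in AG (3.27 to 3.86, from 575 fragments) and 2.17 FPKM in Control (1.96 to 2.40, from 384 fragments). The plain ratio was 1.64 (1.44 to 1.87). The log2 ratio with its pseudocount of 1 FPKM was 0.52, short of the 1.5-fold used for calls. CD36 has 24 annotated transcripts, and the submitters' values divide its fragments by 10880 exonic bases, so its level per length depends on how many of these bases the cells transcribe. The plain ratio between the libraries does not depend on that length, but the log2 ratio with its pseudocount does. The ratio of PLIN2 to CD36 FPKM was 8.76 in AG and 3.41 in Control, and that of CD36 to HILPDA was 0.829 in AG and 0.362 in Control.

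In AG the order of levels per length was PLIN3, PLIN2, HILPDA and CD36, and the intervals of HILPDA and CD36 overlapped. In Control the order was the same, and here the intervals of PLIN2 and HILPDA overlapped. The 4 genes therefore did not share a direction. PLIN2 and CD36 were above 0 on the log2 scale and PLIN3 and HILPDA below, with a median of 0.17 against -0.03 for all expressed genes. Of the 4, 1 (PLIN2) was at least 1.5-fold higher on this scale and 0 were at least 1.5-fold lower, beside 3.6% and 3.33% of all expressed genes. At 2-fold, PLIN2 remained the single member past the threshold, beside 1.18% of expressed genes higher and 0.886% lower. By the plain ratio without a pseudocount, PLIN2 and CD36 were at least 1.5-fold higher and no member was as far below, beside 5.79% and 6.3% of expressed genes. All 4 counting intervals excluded a ratio of 1, PLIN2 and CD36 above it and PLIN3 and HILPDA below it. The same held for 16.7% (above) and 22.9% (below) of the expressed genes with a recovered fragment pair, so an interval that excludes 1 was common in these libraries. Because the members were chosen with these values known, nothing is read from the counts.

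**Figure D2:**
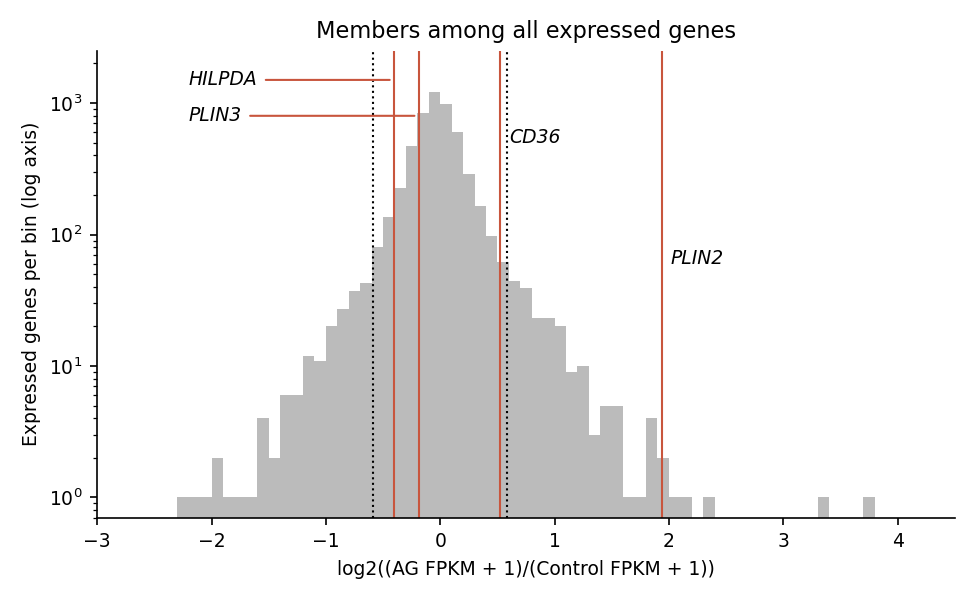
Number of expressed genes (log axis) per bin of 0.1 in log2((AG FPKM + 1)/(Control FPKM + 1)), with red lines for the 4 members and dotted lines at 1.5-fold in either direction. PLIN2 lies at 1.94 in the sparse upper tail, while CD36 at 0.52, PLIN3 at -0.19 and HILPDA at -0.41 lie between the dotted lines.

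All 4 are protein-coding genes. By GENCODE 29 (GRCh38), PLIN2 (ENSG00000147872) lies at chr9:19108375-19149290 on the minus strand and PLIN3 (ENSG00000105355) at chr19:4838341-4867768 on the minus strand. HILPDA (ENSG00000135245) lies at chr7:128455849-128458418 and CD36 (ENSG00000135218) at chr7:80369575-80679277, both on the plus strand. The gene lengths implied by the deposited values were 2070 bases for HILPDA and 10880 for CD36, equal to the summed exons of GENCODE 29. They were 5011 for PLIN2 and 2739 for PLIN3, against 5086 and 2813 in GENCODE 29. None of the other genes that overlap CD36 shares exonic bases with it, and no other gene overlaps PLIN2.

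Other genes of lipid storage were read from lists that were drawn up with earlier results of these data known. Each list holds more genes than could be analysed, so its count speaks only for the expressed ones. Of 143 different genes on the lists, 42 were expressed. Of these, 8 were at least 1.5-fold higher and 0 were lower, beside 3.6% and 3.33% of all expressed genes, with a median log2 ratio of 0.14. The 8 were PLIN2, PNPLA3, LIPA, GPAT3, PDK4, SLC25A20, PPARD and SREBF1.

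Among proteins of the droplet coat and of droplet assembly, PLIN2 was the single gene past 1.5-fold. Of 20 listed genes 5 were expressed, with 4 within 1.5-fold and a median of -0.12. HSD17B11, a short-chain dehydrogenase of droplets, had 31.5 FPKM in AG and 37.4 in Control, a ratio of 0.841 (0.776 to 0.911). LDAH, a droplet-associated hydrolase, had 8.68 FPKM in AG and 8.63 in Control. LDAF1, which works with seipin where droplets form, had 2.03 FPKM in AG and 2.29 in Control, and its interval included 1 (0.647 to 1.21). BSCL2, which encodes seipin, had 0.334 FPKM in AG and 0.259 in Control. CIDEC, a droplet fusion protein of fat cells, rested on 2 fragments in AG and 1 in Control.

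Genes that act on stored triglyceride were mixed. Of 12 genes 5 were expressed, of which 2 were at least 1.5-fold higher and 3, HILPDA among them, were within 1.5-fold, with a median of 0.06. PNPLA3, a droplet protein related to PNPLA2 that binds ABHD5, had 15.2 FPKM in AG and 7.06 in Control, a ratio of 2.16 (1.90 to 2.45). LIPA, the acid lipase that breaks down lipid in lysosomes, had 30.4 FPKM in AG and 18.3 in Control, a ratio of 1.66 (1.55 to 1.77). Both were thus high in the same library as PLIN2. DDHD2, a triglyceride lipase, had 7.88 FPKM in AG and 7.55 in Control. FAF2, which acts in protein turnover at the droplet and the endoplasmic reticulum, had 18.1 FPKM in AG and 19.0 in Control.

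Triglyceride synthesis was represented by its first steps. Of 19 genes 6 were expressed, of which 1 was at least 1.5-fold higher and 5 were within 1.5-fold, with a median of 0.10. The higher one was GPAT3, an acyltransferase of the endoplasmic reticulum that begins glycerolipid synthesis. It had 2.30 FPKM in AG (124 fragments) and 0.527 in Control (31 fragments), a ratio of 4.37 (2.93 to 6.71). Its relatives did not differ in this way. GPAT4 had 12.1 FPKM in AG and 11.9 in Control, and the mitochondrial enzyme GPAM had 1.87 and 1.97. GPAT3 therefore held 14.1% of the summed FPKM of GPAM, GPAT3 and GPAT4 in AG and 3.65% in Control. GPAT4 held the largest share in both libraries, 74.4% in AG and 82.7% in Control.

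**Figure D3:**
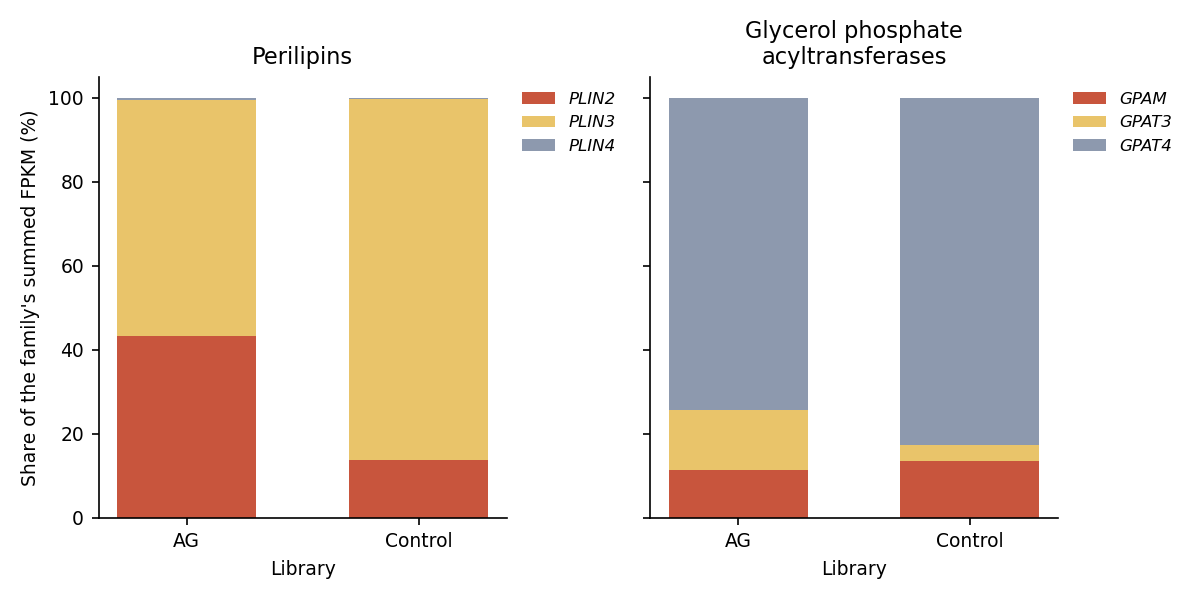
Share (%) of the summed FPKM held by each gene, in the AG and Control libraries, for PLIN2, PLIN3 and PLIN4 and for GPAM, GPAT3 and GPAT4. PLIN2 holds 43.3% of the perilipin sum in AG and 13.7% in Control, and GPAT3 holds 14.1% and 3.65% of the acyltransferase sum.

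At the next step, AGPAT5 had 1.40 FPKM in AG and 0.642 in Control, a plain ratio of 2.19 (1.54 to 3.15). Its log2 ratio of 0.55 was short of 1.5-fold. AGPAT2, the most abundant acyltransferase of those analysed, had 102 FPKM in AG and 89.9 in Control, and AGPAT3 had 16.5 FPKM in AG and 17.5 in Control. AGPAT1 was listed near 0, from 6 fragments in AG and 5 in Control. The lipin genes LPIN1, LPIN2 and LPIN3, whose products act between AGPAT and DGAT, were not analysed here.

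In fatty acid uptake and binding, CD36 had the highest ratio of the 5 expressed genes. All 5 were within 1.5-fold and above 0, with a median of 0.22. SLC27A3, an acyl-CoA synthetase of the fatty acid transporter family, had 2.07 FPKM in AG and 1.54 in Control, a ratio of 1.34 (1.06 to 1.69). SLC27A4, the most abundant of that family here, had 10.7 FPKM in AG and 10.5 in Control, and SLC27A1 had 2.44 and 2.40. FABP5, a fatty acid-binding protein of macrophages and skin, had 24.9 FPKM in AG and 21.2 in Control, a ratio of 1.17 (1.05 to 1.30). FABP5 has processed pseudogenes with which reads can be shared, so its value is uncertain. Of the summed FPKM of the 7 genes of this list in both libraries, CD36 held 8.01% in AG and 5.60% in Control.

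The lists of later fates of fatty acids and of lipoprotein uptake had 1 or 2 expressed genes each. ACSL5, an acyl-CoA synthetase, had 16.2 FPKM in AG and 14.0 in Control. LRP8, a lipoprotein receptor, had 10.2 FPKM in AG and 9.40 in Control. SOAT1, which makes cholesterol ester for storage in droplets, had 10.5 FPKM in AG and 12.3 in Control, a ratio of 0.855 (0.789 to 0.926). ABCG1, a cholesterol exporter of macrophages, had a mean below 1 FPKM and stood outside the expressed genes. It had 1.00 FPKM in AG (91 fragments) and 0.0805 in Control (8 fragments), a ratio of 12.4 (6.05 to 29.7).

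PLIN2, CD36 and HILPDA are also on the list of PPAR target genes. Of 17 such genes 9 were expressed, of which 3 were at least 1.5-fold higher, 6 were within 1.5-fold and 8 were above 0, with a median of 0.46 against -0.03 for all expressed genes. HILPDA was the exception below 0. SLC25A20, which carries acylcarnitine into mitochondria, had 24.8 FPKM in AG and 11.9 in Control, a ratio of 2.08 (1.83 to 2.37). PDK4, a kinase that inhibits pyruvate dehydrogenase, had 9.42 FPKM in AG and 0.0407 in Control, from 636 and 3 fragments, a ratio of 232 (78.9 to 1127). ACADVL, an enzyme of fatty acid oxidation, had 62.9 FPKM in AG and 45.3 in Control, a ratio of 1.39 (1.33 to 1.45). HADHA and HADHB, the subunits of the trifunctional protein, had ratios of 1.13 each. ETFDH, which passes electrons from fatty acid oxidation to ubiquinone, had 1.90 FPKM in AG and 1.60 in Control. PLIN2, CD36 and PDK4 were among the genes known to be high when the list was drawn up, so the list gives no independent direction.

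HILPDA is on the list of hypoxia targets as well, and there all 8 expressed genes of 18 were within 1.5-fold, 4 above 0 and 4 below, with a median of 0.02. HILPDA had the lowest log2 ratio of these 8. P4HA1, a collagen prolyl hydroxylase, had the highest log2 ratio (0.55), with 27.8 FPKM in AG and 18.7 in Control, a ratio of 1.48 (1.36 to 1.62). VEGFA, an angiogenic growth factor, had the highest plain ratio of the 8, 1.54 (1.34 to 1.78), from 2.15 FPKM in AG and 1.40 in Control, with a log2 ratio of 0.40. LDHA, lactate dehydrogenase, had 14.3 FPKM in AG and 10.7 in Control. SLC2A1, the glucose transporter GLUT1, had 42.5 FPKM in AG and 51.6 in Control, and HK2, a hexokinase, had 5.97 and 7.14. BNIP3, a mitophagy receptor, had 7.61 FPKM in AG and 8.19 in Control. The hypoxia genes were thus split evenly by sign, with BNIP3, SLC2A1 and HK2 on the side of HILPDA. The interval of BNIP3 included 1 (0.832 to 1.04), as did that of PDK1 on the other side (0.995 to 1.32).

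Of 16 transcription factors and cofactors of lipid metabolism, 5 were expressed, with 2 at least 1.5-fold higher and 3 within 1.5-fold (median -0.04). PPARD, the PPAR of widest expression, had 18.5 FPKM in AG (1224 fragments) and 10.5 in Control (757 fragments), a ratio of 1.77 (1.61 to 1.94). SREBF1, which drives fatty acid synthesis, had 27.7 FPKM in AG and 16.5 in Control, a ratio of 1.68 (1.60 to 1.78). PPARA had 2.34 FPKM in AG and 2.44 in Control, and its interval included 1 (0.846 to 1.09). RXRB, a partner of the PPAR receptors, had 7.67 FPKM in AG and 9.65 in Control, a ratio of 0.794 (0.701 to 0.899). ARNT, the partner of the hypoxia factors, had 23.0 FPKM in AG and 23.6 in Control. PPARG, RXRA and HIF1A were not analysed here.

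**Figure D4:**
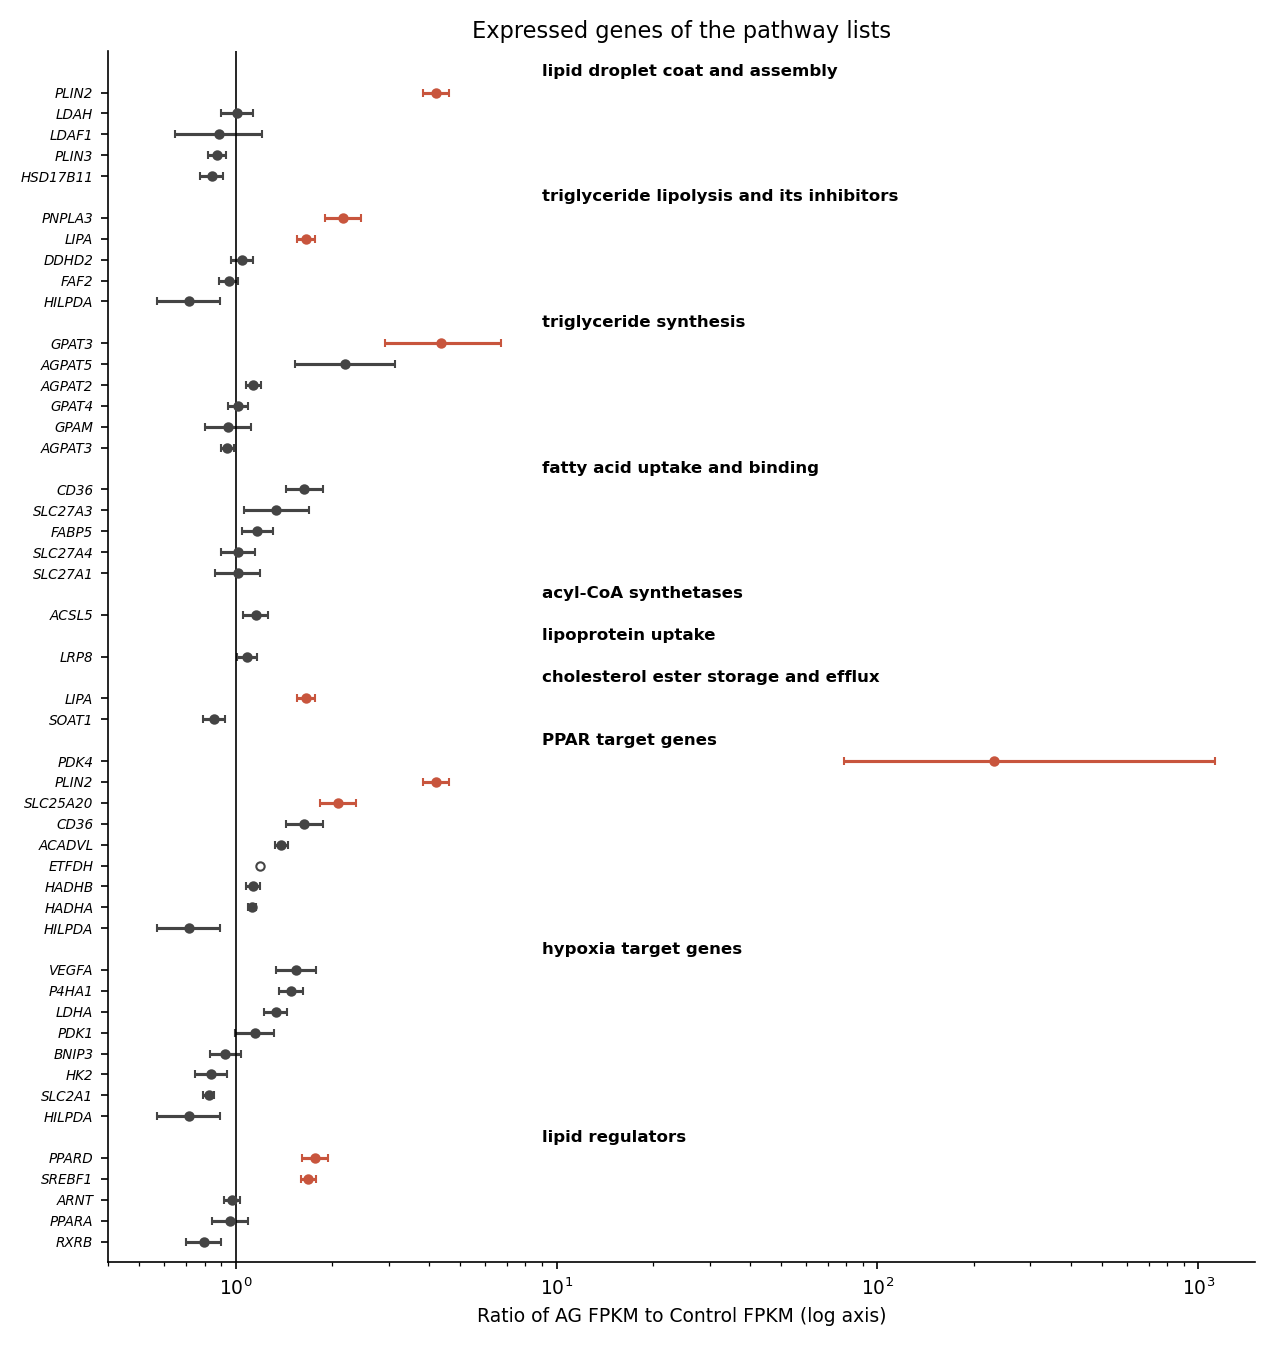
Ratio of AG to Control FPKM (log axis) for every expressed gene of each pathway list, with bars for exact 95% counting intervals, red where the gene was at least 1.5-fold higher on the log2(FPKM + 1) scale and open where no interval could be computed. PLIN2 at 4.21, GPAT3 at 4.37 and PDK4 at 232 lie farthest right, and HILPDA at 0.714 lies farthest left.

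Myeloid genes differed between the same libraries as PLIN2 and CD36. Of the 7 expressed monocyte and granulocyte genes, 2 were at least 1.5-fold higher and 2 were lower, beside 3.6% and 3.33% of all expressed genes. ITGAM, an integrin of mature myeloid cells, had 8.29 FPKM in AG and 1.55 in Control, and S100A9, a calcium-binding protein of neutrophils and monocytes, had 131 and 66.3. CTSG, a granule protease, had 194 FPKM in AG and 743 in Control, and MPO, another granule enzyme, had 1.70 and 4.75. LYZ, CD33 and ELANE were within 1.5-fold. Among the other marker lists, 1 of 5 T and NK genes, 1 of 7 erythroid and platelet genes and 1 of 4 endothelial genes were listed in both libraries. Their summed levels were 10.3 FPKM in AG and 17.2 in Control, 0.230 and 0.421, and 0.0259 and 0.00593. The part of the myeloid genes in the levels of PLIN2 and CD36 was not tested.

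With 2 libraries, a likeness between genes is only a like difference. Over 2890 protein-coding genes that averaged 5 FPKM or more, those nearest to PLIN2 in log2 ratio were TMEM160 (1.96), HK3 (1.80), NTSR1 (1.64), RPL7A (1.58) and KCTD12 (1.54). HK3, a hexokinase of myeloid cells, had 18.8 FPKM in AG and 4.68 in Control. RPL7A is a ribosomal protein gene with pseudogenes that can share its reads, so its value is uncertain. Around HILPDA and CD36 the ratios were dense, and the 5 nearest genes lay within 0.02 on the log2 scale. They were PALM2-AKAP2, SLPI, SLC22A15, C8orf82 and REXO5 for HILPDA and SH2B1, SQLE, FBL, FNBP4 and PRKCB for CD36. SQLE, squalene epoxidase of sterol synthesis, had 68.3 FPKM in AG and 47.1 in Control.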

How the data were processed

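The authors deposited 1 table of FPKM per gene for each library. Per the submitters' processing notes, the tools were Trimmomatic, HISAT2, Cufflinks and HTSeq and the build was hg38, with no versions named; per the labels, the kit was TruSeq Stranded mRNA. The sources used here do not give the annotation release, the strand setting or filters. Of 16145 gene IDs, 97.1% were in GENCODE 29.

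FPKM times exon length gave whole fragments, within 0.01, for 88.1% of 5259 single-transcript genes of AG and 88.4% of 5315 of Control. Listed genes held 43.8% and 43.2% of the implied totals. The whole fragment numbers of a gene were taken at the length nearest its GENCODE 29 exon length that made both libraries' numbers whole, and were found for 97.4% of expressed genes. Ratios have exact Clopper-Pearson intervals, levels exact Poisson intervals, and ratios of 2 genes exact conditional intervals of a 2 by 2 table, all at 95% and for counting error only, since fragments are not independent molecules.

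With 1 library per group, conditions could not be tested against each other. The files list no zeros, so a gene missing from a file was neither set to 0 nor compared. Listed values near 0 of genes that most cells express, such as BSCL2 and AGPAT1, can reflect reads that were not counted. FPKM divides by the library total, so abundant genes shift all others. The pseudocount of 1 FPKM understates differences of low genes. The members and lists were chosen with earlier results of these data known. Named are the 8 genes of the rule and, among the expressed genes of each list, the 3 highest and 3 lowest by log2 ratio and those past 1.5-fold. ACADVL and HADHB are named outside this rule. The 5 genes nearest in ratio to PLIN2, HILPDA and CD36 are also named. PLIN4, BNIP3, PDK1, BSCL2, CIDEC, AGPAT1 and ABCG1, and the genes of the observations, were named after their values were seen. The value of 1 pre-B marker is not reported here. The steps were tested on simulated data. Versions were matplotlib 3.10.9, pandas 2.3.3, scipy 1.17.1 and numpy 2.4.6, under Python 3.11.15. The alternatives were other pseudocounts, filters, scalings and a 2-fold threshold.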

Additional observations from a re-analysis of the deposited data

Results flagged for a closer look

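Among the genes of the lists, 2 had a value of at least 1 FPKM in a single library and so stood outside every comparison. FABP3, the fatty acid-binding protein of heart and muscle, was listed in AG only, at 1.20 FPKM. LIPE, the hormone-sensitive lipase, was listed in Control only, at 1.09 FPKM. Both lie above the level that 3 fragments give. Neither has a value in the other library, so no difference between AG and Control can be read from them.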

How the results depend on the processing

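The signs of PLIN2, CD36, HILPDA and PLIN3 were the same under pseudocounts of 0.1 and 5 FPKM, without a filter on low values, with AG scaled to the same total over genes listed in both libraries and with AG scaled by the median of ratios; CD36 gave no value at a minimum mean of 5 FPKM. With a pseudocount of 0.1 FPKM, 2 members (PLIN2 and CD36) were at least 1.5-fold higher, in place of 1. With a pseudocount of 5 FPKM the log2 ratio was 1.54 for PLIN2 and 0.25 for CD36, by construction nearer 0. At a minimum mean of 5 FPKM the median of the members was -0.19, because CD36 was left out. At a 2-fold threshold 4 genes of the pathway lists were higher, in place of 8, and none were lower under any alternative run. The number higher was 11 with a pseudocount of 0.1 FPKM, 7 with 5 FPKM and 6 at a minimum mean of 5 FPKM. For triglyceride synthesis, where GPAT3 was the 1 higher gene, these settings gave 2, 0 and 0. The median of all expressed genes moved by 0.04 or less on the log2 scale under either scaling. No paired analysis was possible because each group has 1 library. Depth limits HILPDA most among the members, at 132 fragments in AG and 202 in Control.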

Other observations

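The nearest expressed protein-coding genes on either side of PLIN2 did not share its difference. HAUS6, a mitotic spindle protein whose gene lies 5.26 kb away, had 26.9 FPKM in AG and 23.5 in Control. DENND4C, 81.1 kb away on the other side, had 3.91 FPKM in AG and 3.54 in Control. Next to HILPDA, IMPDH1 had 42.1 FPKM in AG and 39.1 in Control, and METTL2B had 6.87 and 7.87. The nearest expressed protein-coding gene on the lower side of PLIN3 was LRG1, 298 kb away, which encodes a secreted leucine-rich glycoprotein of neutrophils. LRG1 had 34.7 FPKM in AG and 16.6 in Control, a log2 ratio of 1.02, while PLIN3 had -0.19. DUS3L, 917 kb away on the other side of PLIN3, had 15.0 FPKM in AG and 15.9 in Control, a log2 ratio of -0.08. These are the nearest genes among the expressed ones, since other genes in between were not analysed here.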
